A study of Caenorhabditis elegans with 2 samples.

Results

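The regions described here are the X-linked promoter regions of a ChIP-seq experiment on ZTF-11 in Caenorhabditis elegans larvae. The members were chosen by measured signal and by position. The pooled list of 30000 regions was ranked by its deposited signal, the 10000 highest regions were kept, and those on X whose summit lay no more than 500 bp from the start of a protein-coding transcript were taken. This gave 319 members, out of 1698 X regions among the 10000 highest. The experiment had 1 group of 2 biological replicates, so no contrast between conditions existed. Both replicates were whole larvae of the first larval stage, of both sexes and of unknown age, from the strain OP236 with the genotype unc-119(ed3) III; wgIs236. The line stably expresses ZTF-11 fused at the C-terminal end to GFP-FLAG, and the antibody is labelled ztf-11. Chromatin of all cell types was mixed, so a low signal in many cells and a high signal in few cells cannot be told apart. The lists hold signal values and no read counts, so depth was unknown.

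ZTF-11, the worm's Myt1-type zinc-finger protein, is known for a role in neurogenesis, where it represses non-neuronal genes. The worm X chromosome is known for dosage compensation, in which a condensin-like complex is recruited to specific X sites in XX animals and lowers transcription along the chromosome. It is also known to carry few genes expressed in the germline. The lists named "peaks and background" hold many regions of low signal, and the promoter label states only where a summit lay. Of the 319 summits, 136 were intergenic, 121 in introns, 42 in coding exons, 17 in 5' UTRs and 3 in 3' UTRs of protein-coding genes. For 71 members (22.3%, 17.8% to 27.2%) every start within 500 bp was an internal start of its gene, downstream of that gene's outermost start. Among autosomal promoter regions taken with the same limits this share was 17.2% (15.7% to 18.8%). The share over all promoter bases was not counted. Intervals here are exact 95% binomial intervals, which cover counting of regions only.

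The sequences around the summits of the 5 members with a pooled rank up to 300 are given, as the sites of highest signal in the set. Each is 101 bases of the plus strand of the ce11 genome, centred on the summit, with the AAGTT word of Myt1 family factors in capitals on either strand (AAGTT or AACTT). The windows lie on X at 5841305 to 5841405 (puf-9), 2242977 to 2243077 (rpl-11.2), 9669167 to 9669267 (T14B1.1), 353337 to 353437 (sor-3) and 6207893 to 6207993 (T13C5.6).
puf-9: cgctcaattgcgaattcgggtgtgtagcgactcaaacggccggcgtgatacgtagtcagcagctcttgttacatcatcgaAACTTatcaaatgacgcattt
rpl-11.2: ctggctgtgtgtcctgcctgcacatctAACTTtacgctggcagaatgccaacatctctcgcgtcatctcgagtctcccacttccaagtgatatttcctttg
T14B1.1: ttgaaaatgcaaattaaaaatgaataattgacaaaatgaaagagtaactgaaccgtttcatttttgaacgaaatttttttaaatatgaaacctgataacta
sor-3: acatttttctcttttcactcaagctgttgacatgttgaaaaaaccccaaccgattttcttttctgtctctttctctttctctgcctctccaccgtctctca
T13C5.6: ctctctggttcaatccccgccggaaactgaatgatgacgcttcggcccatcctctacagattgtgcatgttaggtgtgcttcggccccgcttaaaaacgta
The word occurred once at puf-9 and rpl-11.2, on the minus strand, and at none of the other sites shown. GC content ranged from 22.8% at T14B1.1 to 52.5% at T13C5.6, so the highest members did not share a common base composition.

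The member of highest signal lay upstream of puf-9, which encodes a PUF-family RNA-binding protein of the heterochronic pathway that times larval development. Its pooled signal was 39.4, at rank 99, with a signal of 17.7 in replicate 1 (rank 943) and 18.1 in replicate 2 (rank 456). The region at X 5841180 to 5841529 was intergenic and peaked 237 bp upstream of the start. It ranked among the 1000 highest in both replicates. No scaling between lists is stated, so replicates are compared by rank. Non-coding RNA genes (W06B11.7 and W06B11.9) lay within 200 bp of the same summit.

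The next member lay 409 bp upstream of rpl-11.2 (X 2242852 to 2243201), which encodes a protein of the large ribosomal subunit, with a pooled signal of 37.9 at rank 121. Its replicate 1 signal was 11.7 (rank 8611) and its replicate 2 signal 25.8 (rank 59). This region was thus near the top of replicate 2 and near the lower end of the 10000 highest in replicate 1. The region 494 bp upstream of T14B1.1 (X 9669042 to 9669391), a gene for a protein with a DUF4116 domain, had a pooled signal of 36.6 (rank 143), with 19.2 in replicate 1 (rank 559) and 16.9 in replicate 2 (rank 780). It and the puf-9 region were the only 2 of the 319 members among the 1000 highest of both replicate lists.

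The region 232 bp upstream of sor-3 (X 353212 to 353561), a relative of the Hox repressor SOP-2, had a pooled signal of 35.5 (rank 175). Its replicate signals were 17.3 (rank 1098) and 16.3 (rank 981). A tRNA gene lay 51 bp from this summit, and 19.4% of the 31-base words in the region were repeated elsewhere in the genome. The region 256 bp upstream of T13C5.6 (X 6207768 to 6208117), a predicted phosphatidic acid phosphatase gene, had a pooled signal of 34.3 (rank 222), with 16.09 in replicate 1 (rank 1783) and 19.8 in replicate 2 (rank 234). The non-coding RNA gene C14F11.14 lay within 200 bp of it and 5.94% of its words were repeated. Of the 5 highest members, 4 had an annotated non-coding gene within 200 bp of the summit, against 22 of all 319. No other member with a pooled rank up to 1000 had one, so the contrast depends on where the set is cut. The share at other promoters was not counted, so these counts are no result about members of high signal. Signal of the protein-coding promoter and of these neighbours cannot be told apart at this distance.

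The egl-17 region (X 489987 to 490336) lay in an intron, 388 bp downstream of the start of this FGF gene, whose product guides migrating sex myoblasts. Its pooled signal was 30.8, with 17.2 in replicate 1 (rank 1149) and 14.9 in replicate 2 (rank 1733). The region 348 bp upstream of hda-4, a class II histone deacetylase gene, had a pooled signal of 29.7, with 16.7 (rank 1402) and 16.12 (rank 1068) in the replicates. The cebp-1 region, 333 bp upstream of a bZIP factor gene known from axon regeneration, had a pooled signal of 30.1, with 14.4 (rank 3277) and 18.9 (rank 328). The egl-17 and hda-4 regions were among the 2000 highest of both replicates, as were those of puf-9, T14B1.1, sor-3, T13C5.6 and, at pooled rank 2949, bet-2, a limit chosen after the values were seen.

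Further members of the 25 highest lay upstream of pdi-6, a protein disulfide isomerase (18 bp, pooled signal 30.2), serp-1.1, a stress-associated endoplasmic reticulum protein (408 bp, 29.01), and uggt-1, a glucosyltransferase of glycoprotein folding control (135 bp, 28.7). The pdi-6 region was listed at 15.2 in replicate 1 (rank 2434) and 15.7 in replicate 2 (rank 1249). The serp-1.1 region was listed at 7.73 (rank 27588) and 17.9 (rank 519), and the uggt-1 region at 8.66 (rank 21572) and 17.1 (rank 707). The serp-1.1 and uggt-1 regions were among the 1000 highest of replicate 2 and below rank 20000 in replicate 1.

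Several high members were listed in a single replicate. The hst-2 region, 82 bp upstream of a heparan sulfate sulfotransferase gene, had a pooled signal of 31.8 and a replicate 2 signal of 23.7 (rank 76), and no replicate 1 region within 200 bp. The acl-1 region, 261 bp upstream of an acyltransferase gene, had a pooled signal of 30.5 and a replicate 2 signal of 31.3 (rank 30), again with no replicate 1 match. In the other direction, K09E9.4 (pooled signal 30.7), madd-3, a kinase gene known from muscle arm development (29.3), and H28G03.3, a bZIP gene (27.9), had replicate 1 ranks of 80, 286 and 269 and no replicate 2 match. The other members of the 25 highest were H03E18.2, T14F9.2, irk-3, C23H4.6, F56F10.2, fln-2, F52D10.2, C53C11.5 and ZK816.1, with pooled signals from 28.04 (ZK816.1) to 31.9 (H03E18.2).

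**Figure D1:**
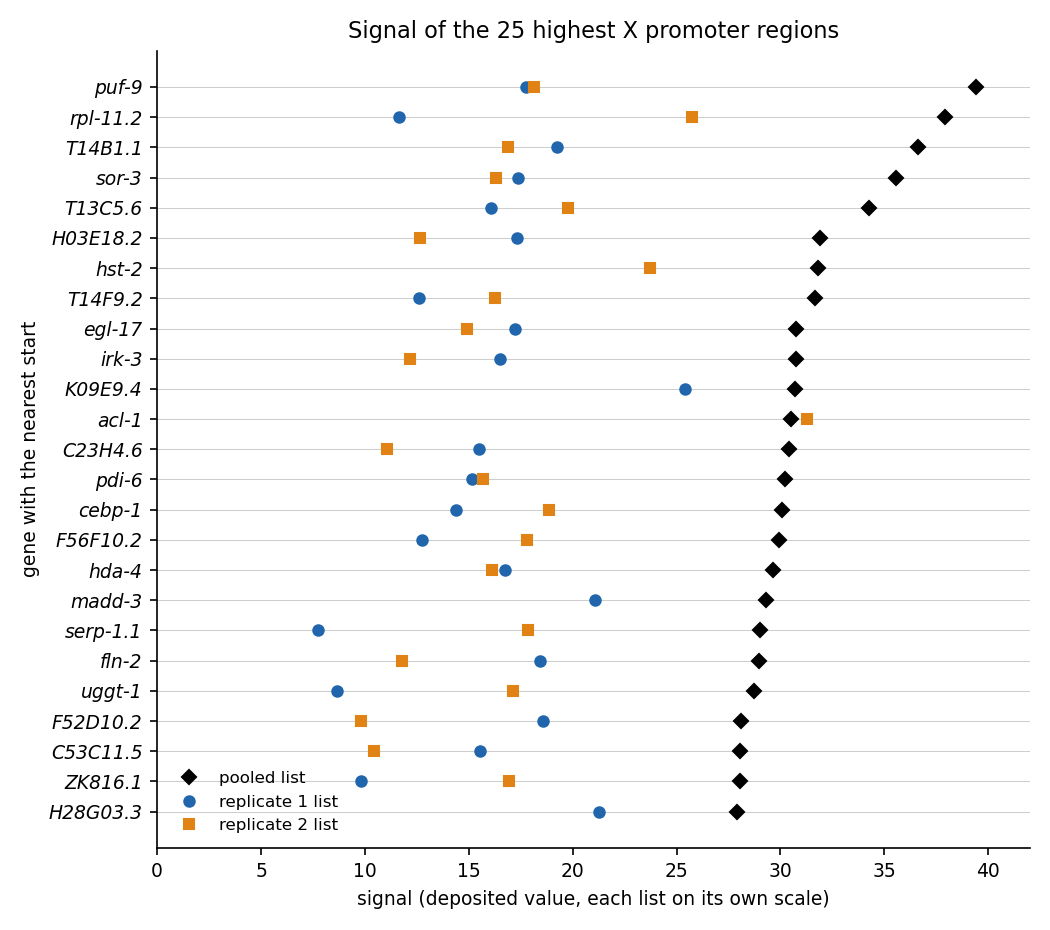
Signal of the 25 X promoter regions of highest pooled signal (x axis, deposited value) by the gene with the nearest start (y axis). Diamonds are the pooled list, circles replicate 1 and squares replicate 2, and a missing symbol means no region within 200 bp in that list. Signals are not on a common scale between lists. The acl-1 and hst-2 rows have no replicate 1 symbol, and those of K09E9.4, madd-3 and H28G03.3 have no replicate 2 symbol.

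X promoter regions were as frequent among the X regions as promoter bases are on X. Of 1698 X regions among the 10000 highest, 18.8% lay at promoters (16.95% to 20.7%), and 18.8% of the bases of X lie within 500 bp of a protein-coding start. On the autosomes 28.6% of 8302 regions lay at promoters (27.6% to 29.6%), against 23.996% of bases. Per megabase of promoter sequence there were 96.0 regions on X and 120 on the autosomes, and per megabase elsewhere 95.8 and 94.5. The density at X promoters was thus close to that away from starts, on X and on the autosomes. The ratio of the region share to the base share was 1.00 on X and ran from 1.11 (chromosome IV) to 1.34 (chromosome I) on the 5 autosomes. The share of the 319 is near this background, so no statement about single promoters rests on membership. These shares are descriptions without a test, because regions of 1 pooled list are not replicates.

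The share at promoters was lower on X than on the autosomes in each of the 8 rank ranges examined, over all 30000 regions. Among regions ranked 1 to 100, 1 of 21 on X lay at a promoter (4.76%, 0.120% to 23.8%) and 53 of 79 on the autosomes (67.1%, 55.6% to 77.3%). For ranks 101 to 300 the shares were 17.4% (4 of 23) and 45.8% (81 of 177), and for ranks 301 to 1000 they were 19.05% (24 of 126) and 33.97% (195 of 574). On the autosomes the share fell with rank, to 25.32% for ranks 20001 to 30000. On X it lay between 17.4% and 20.7% in each range past rank 100. In replicate 1 alone, 10.3% of the X regions and 34.9% of the autosomal regions among its 1000 highest nuclear regions lay at promoters. In replicate 2 these shares were 21.7% and 37.9%. Both replicates had the lower share on X. The intervals were, for X and the autosomes in turn, 6.02% to 16.22% and 31.7% to 38.2% in replicate 1, and 15.7% to 28.7% and 34.6% to 41.3% in replicate 2.

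**Figure D2:**
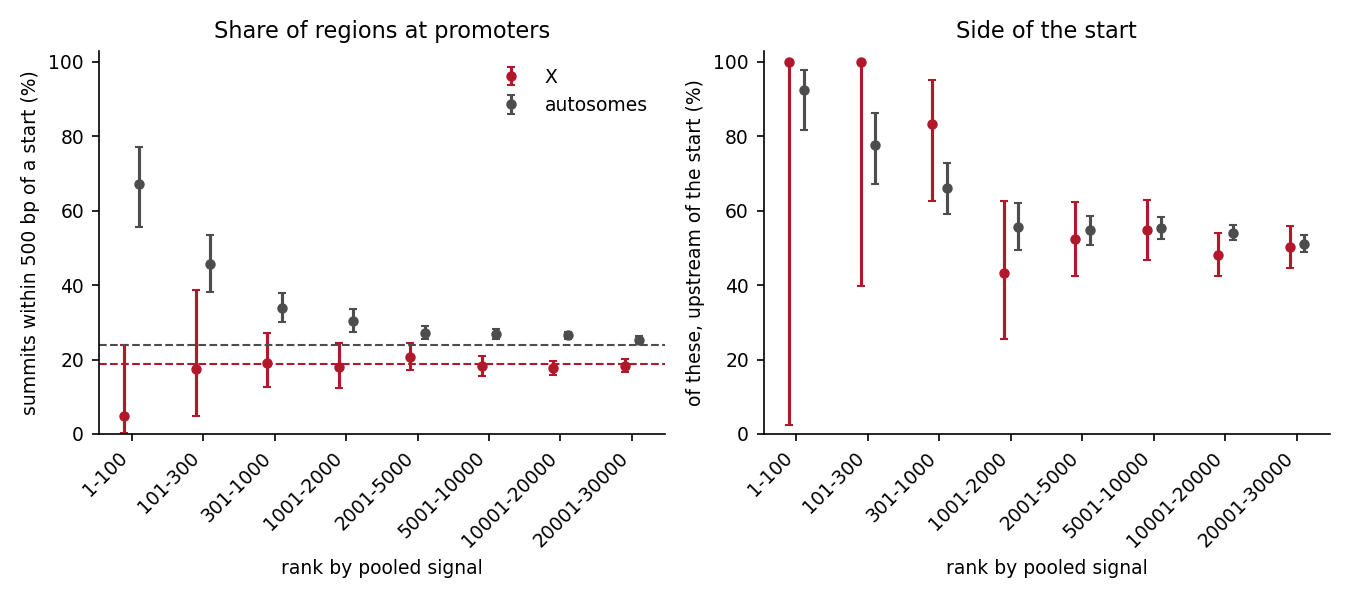
Left, share of regions with a summit within 500 bp of a protein-coding start (y axis, percent) by rank of pooled signal (x axis), for X and the autosomes. Right, share of these promoter regions that lay upstream of the nearest start. Points are shares, bars exact 95% binomial intervals, and dashed lines the share of bases within 500 bp of a start. The X points lie between 17.7% and 20.7% from rank 301 on, while the autosomal points fall from 67.1% to 25.32%.

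The signal of the members, which the rule used, spanned a narrow range. It ran from 17.9 to 39.4 with a median of 21.1, while autosomal promoter regions ran from 17.9 to 127 with a median of 21.2. Above a signal of 30 lay 15 of the 319 X members and 211 of the 2375 autosomal promoter regions. So did 70 of the 1379 X regions away from starts and 526 of the 10000 highest regions. Ranks up to 1000 were held by 9.09% of members, 13.9% of autosomal promoter regions and 10.2% of X regions away from starts. The share over the 10000 highest is 10%, so the members are near it and these counts are no result about them. None of the 319 was in the authors' consensus of 88 peaks, 20 of which were on X. The members just inside the rank limit, at F28H6.7 and sulp-3, had signals of 17.97 and 17.94. The X promoter regions just outside it, at cutl-3 and C44C10.11, had 17.93 and 17.91. At the distance limit, the members at K08H2.10 and H03E18.2 had summits 499 bp and 500 bp from a start, and the X summits nearest outside lay 502 bp from F48F7.6 and 505 bp from C18B12.4. The neighbours on either side of the rank limit were alike in signal. At the distance limit the signals were 22.1 (K08H2.10) and 31.9 (H03E18.2) inside, and 19.4 (F48F7.6) and 24.5 (C18B12.4) outside.

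Members of high signal lay mostly upstream of the start, a property the rule did not use. Of the 29 members with a pooled rank up to 1000, 25 were upstream (86.2%, 68.3% to 96.1%), and 9 of them lay between 200 bp and 300 bp upstream. Of the other 290 members, 153 were upstream (52.8%, 46.8% to 58.6%), and 49.4% of the promoter bases of X are nearer to a start on their upstream side. The lower-ranked members were thus spread about evenly over both sides. All 5 members with a rank up to 300 were upstream, and the share was 83.3% (20 of 24) for ranks 301 to 1000 and 43.3% (13 of 30) for ranks 1001 to 2000. The limit at rank 1000 was chosen after these values were seen. On the autosomes 73.3% of the 329 promoter regions up to rank 1000 were upstream (68.1% to 77.96%) and 55.2% of the others (53.0% to 57.4%), so the shift towards upstream sites was seen on both. In the replicate lists taken alone, X promoter regions among the 1000 highest were upstream in 13 of 16 cases in replicate 1 (81.2%, 54.4% to 96.0%) and in 23 of 36 in replicate 2 (63.9%, 46.2% to 79.2%). The replicate 2 interval includes an even split. For ranks 1001 to 10000 the X shares were 57.3% in replicate 1 and 57.9% in replicate 2. Each lies inside that replicate's interval for its 1000 highest. Neither replicate alone thus separates X promoter regions of high rank from those of lower rank.

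**Figure D3:**
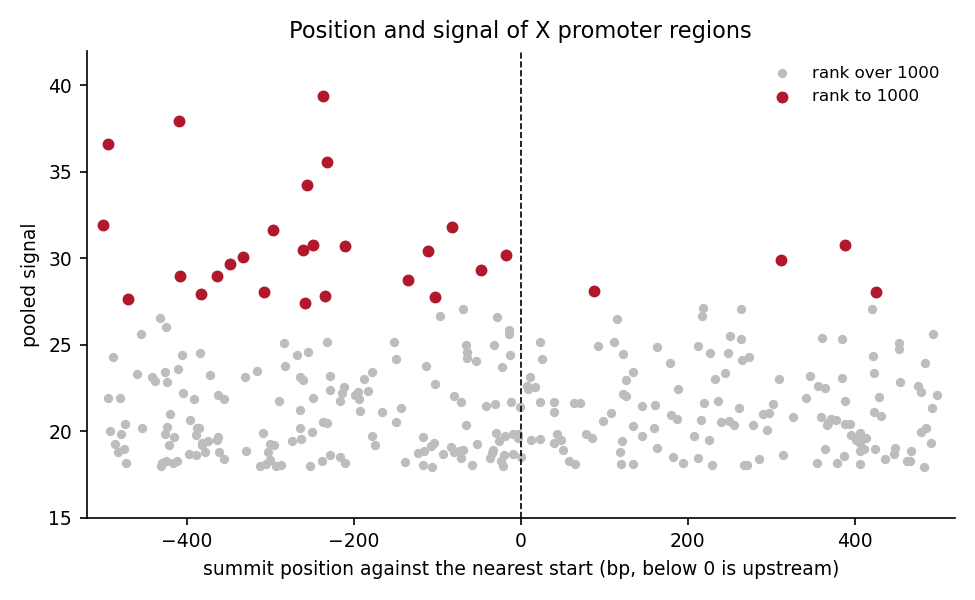
Pooled signal (y axis) of the 319 X promoter regions against the position of the summit from the nearest protein-coding start (x axis, bp, below 0 is upstream). Each point is a region, and those with a pooled rank up to 1000 are in red. Of the 29 red points 25 lie left of the dashed line at the start.

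Annotation at the summit followed the same split. Of the 29 members up to rank 1000, 21 were intergenic (72.4%, 52.8% to 87.3%) and 8 intronic, and 0 were in coding exons (0% to 11.9%). Of the other 290, 39.7% were intergenic, 38.97% intronic and 14.5% in coding exons. Over all promoter bases of X, 36.04% are intergenic, 31.6% intronic and 24.04% coding. Autosomal promoter regions showed the split too, so it is not particular to X. Up to rank 1000, 58.7% of them were intergenic and 9.12% in coding exons, against 37.4% and 18.8% of the others. Few members lay near the starts of more than 1 gene: 8 had starts of 2 or more genes within 500 bp (2.51%, 1.09% to 4.88%), and 2.39% of the promoter bases of X have that property. On the autosomes 12% of promoter regions had starts of 2 or more genes (10.7% to 13.4%), against 6.01% of promoter bases. Starts of both strands lay within 500 bp of 7 X members and of 252 autosomal promoter regions (2.19% and 10.6%).

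Each of the 2 replicates listed most members. A region with a summit within 200 bp was found for 251 members in replicate 1 (78.7%, 73.8% to 83.1%) and for 245 in replicate 2 (76.8%, 71.8% to 81.3%), for 179 in both and for all but 2 in at least 1. The reads of both replicates are in the pooled list, so these matches are no independent check. Of 2375 autosomal promoter regions, 53.9% were listed in both replicates, close to the 56.1% of X members and the 56.1% of the 1379 X regions away from starts. Median ranks of matched members were 8394 in replicate 1 and 6526 in replicate 2. Among the 10000 highest of both lists were 43 members (13.5%), close to the 16% of autosomal promoter regions and the 14.6% of X regions away from starts. Over the 179 members listed in both, the replicate signals had a Spearman rho of -0.16 and a Pearson r of log2 signal of -0.12, across regions selected on their pooled signal. That selection itself bears on the sign, so the values describe this set and say nothing of how well the replicates match. The same rule applied to each replicate list gave 297 regions for replicate 1 and 352 for replicate 2. The pooled members matched 47.1% of the first and 44.03% of the second, and 43.6% and 48.6% of the pooled members had a match there.

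Among the 29 members up to rank 1000, 23 were listed in both replicates (79.3%) and 18 were among the 10000 highest of both (62.1%, 42.3% to 79.3%). For the other 290 members the second share was 8.62% (5.66% to 12.5%). Autosomal promoter regions up to rank 1000 reached 66.9% (61.5% to 71.9%). Among the 1000 highest of both replicates were 2 of the 29 X promoter members (6.90%, 0.846% to 22.8%), 42 of the 329 autosomal promoter regions (12.8%, 9.36% to 16.9%) and 22 of the 141 X regions away from starts up to the same rank (15.6%, 10.04% to 22.7%). The pooled rank that defines these sets holds both replicates' signal, and the shares were not tested against each other.

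**Figure D4:**
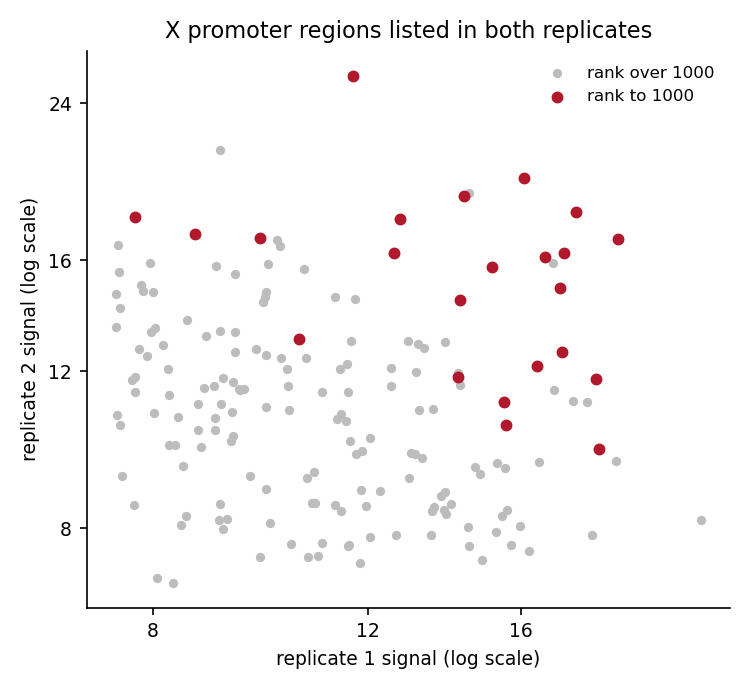
Replicate 2 signal (y axis) against replicate 1 signal (x axis, both on log scales) for the 179 X promoter regions listed in both replicates. Each point is a region, and those with a pooled rank up to 1000 are in red. The Spearman rho is -0.16. The regions were selected on a pooled signal that holds both replicates' reads, so the slope is no measure of agreement between replicates.

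The members gave 299 X protein-coding genes with a start within 500 bp of a summit, or 10.9% of 2731 (9.80% to 12.2%). On the autosomes these were 14.3% of 17242 genes (13.7% to 14.8%). Of 30 gene lists chosen with earlier results of these data known, 27 had genes on X, and 21 of these had at least 1 gene with a member. The share lay above 10.9% for 17 lists and below it for 10, and for all 27 the interval of the list's share included 10.9%. Over the union of the lists, 36 of 290 X genes had a member (12.4%). A share near that of all X genes is not a result about a list, so the genes that follow are given as values.

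The lists for X dosage and for developmental time have too few genes on X to compare their shares with the autosomes. For sex determination and dosage compensation the shares were 33.3% (4.33% to 77.7%) on X and 35% on the autosomes (7 of 20). For heterochronic genes they were 28.6% (3.67% to 71.0%) and 30% (3 of 10). Of 6 X genes for sex determination and dosage compensation, sdc-1, which encodes a zinc-finger protein of the dosage compensation machinery, had a member 232 bp away with a pooled signal of 25.15, and fox-1, an RNA-binding X signal element, had a member 245 bp away with 23.3. The sdc-1 region had a replicate 1 rank of 18633 and no replicate 2 match, and the fox-1 region had ranks of 8692 and 3689. A second fox-1 member had a signal of 21.5, with ranks of 27854 and 6049. Of 7 heterochronic genes, puf-9 and alg-1, an Argonaute of the microRNA pathway, had members, with 39.4 and 18.4. The alg-1 region was listed in replicate 2 alone (rank 3073).

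Neuronal lists held single genes or pairs with a member. Of 5 pan-neuronal and synaptic genes on X, unc-2, a voltage-gated calcium channel subunit, had 2 members. The first had a signal of 25.34 and was listed in replicate 2 alone (rank 265). The second (X 2731024 to 2731373) had a signal of 24.5, with ranks of 19441 and 1215. Of 12 neuronal fate transcription factors only ceh-36, an Otx-type homeobox gene, had a member, with a signal of 18.3 near the lower limit. Of 19 axon guidance and adhesion genes, egl-17 and the actin-binding unc-115 (24.4) had members, of 6 innexins unc-7 (23.4) and inx-1 (21.8), and of 7 acetylcholine receptor subunits acr-12 (26.7). Among 35 neuropeptide and insulin-like genes, flp-18, which encodes FMRFamide-like peptides, was the single gene with a member (21.7), a share of 2.86% (0.0723% to 14.9%). The potassium channel genes twk-23 (23.1) and twk-22 (21.3) had members among 11 of their family. The acr-12 region was listed in replicate 2 alone (rank 572) and the flp-18 region in replicate 1 alone (rank 4890).

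Lists of other tissues included some with members and some without. Of 14 body wall muscle genes, act-4, an actin gene (27.1), unc-78, an actin-interacting protein (24.97), and slo-2, a potassium channel (24.8), had members. The act-4 region lay 264 bp downstream of the start with ranks of 11935 and 1293 in the replicates. Second members lay at act-4 (signal 19.5) and slo-2 (22.999). None of 30 cuticle collagens (0% to 11.6%), 9 epidermis and moulting genes (0% to 33.6%), 7 pharynx genes (0% to 40.96%), 8 cilium genes (0% to 36.9%) and 6 hlh genes (0% to 45.9%) had one. Of 27 nuclear hormone receptors 5 had members (18.5%, 6.30% to 38.1%), led by nhr-120 (26.6) and nhr-91 (23.9), and of 18 ceh homeobox genes 4 did (22.2%, 6.41% to 47.6%), led by ceh-90 (22.6). Single genes had members in the intestine and vitellogenin lists (vit-5, a yolk protein, 18.7), glia (glt-1, a glutamate transporter, 20.6), Notch (dsl-4, a DSL-family gene, 19.6), chaperones (hsp-25, a small heat shock protein, 26.04), translation factors (ife-2, a cap-binding protein, 21.1) and histones (his-24, a linker histone, 19.8). The chemoreceptor list had 4 of 34, led by srv-7 (25.18).

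The lists with the largest autosomal shares of the 30, translation factors and cytosolic ribosomal proteins, have few genes on X. X carries 2 of the 78 cytosolic ribosomal protein genes, and rpl-11.2 was 1 of these 2, while 31 of 76 autosomal genes had a region (40.8%). For translation factors the counts were 1 of 4 on X and 13 of 27 on the autosomes. The germline, mitochondrial ribosomal and proteasome lists had 0 genes on X, with 7 of 45, 16 of 70 and 6 of 33 autosomal genes at regions. Of 50 cell cycle genes, 1 was on X, without a member, against 13 of 49 on the autosomes.

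**Figure D5:**
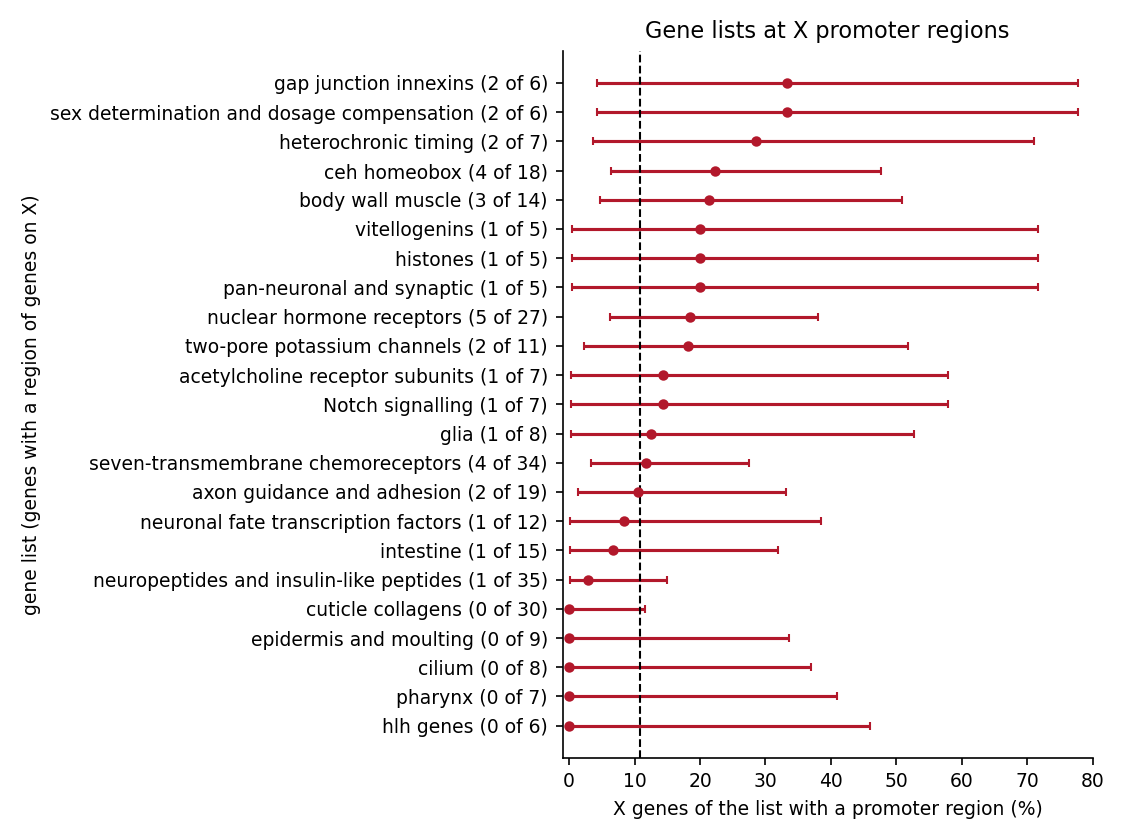
Share of the X genes of each list that had a start within 500 bp of a member (x axis, percent), for the 23 lists with 5 or more genes on X. Points are shares, bars exact 95% binomial intervals, and the dashed line is the share over all X protein-coding genes, 10.9%. Every bar crosses the line, and the counts beside the names show how few genes stand behind each.

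Base composition and sequence words were read in windows centred on the summits. GC content of the 101-base windows had a median of 32.7% (quartiles 26.7% and 38.6%) for the members and 31.7% for autosomal promoter regions. Windows of the same width centred 250 bp upstream or downstream of all 4115 X starts had median GC contents of 34.7% and 35.6%. AAGTT (either strand) occurred in 122 of 319 windows (38.2%, 32.9% to 43.8%). In the windows upstream and downstream of all X starts it occurred in 32.8% and 39.03%, and in autosomal promoter regions in 34.7%. Among the 29 members up to rank 1000 it was found in 8 (27.6%, 12.7% to 47.2%). The share of all members lay between those of the upstream and downstream windows of X starts, and the interval for the 29 includes both.

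The word GCGCAGGG, the core of the motif known from recruitment sites of the dosage compensation complex, was found in 0 of the 319 member windows, which allows a share of up to 1.15%. It was found in 9 of the 1379 X regions away from starts, and all 9 were among the 141 of these with a rank up to 1000 (6.38%, 2.96% to 11.8%). Of the 29 members up to the same rank 0 held it, with an interval up to 11.9% that includes 6.38%. A difference between X promoters and other X regions of like rank is thus not shown. Windows upstream of all X starts held it in 3 of 4115 cases and autosomal promoter regions in 0 of 2375. Among the other words searched on both strands, GAGAGA was found in 7.84% of members and 8.70% of windows upstream of X starts, GATAAG in 4.39% and 4.81%, CACGTG in 1.25% and 1.56%, TTTCAG in 18.5% and 12.5%, and TATAAA in 15.7% and 12.6%. In windows downstream of X starts TTTCAG, the word at 3' splice sites, reached 18.5%. No word searched contains another, and a match is a description of the sequence, not a binding site.

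The members lay along the whole chromosome. Counts per megabase ran from 12 to 27 in the first 17 megabases, with 2 in the last, shorter window, and had a Spearman rho of 0.12 with the number of genes in the same 18 windows. The median spacing between neighbouring members was 35418 bp. For 25 genes more than 1 member lay within 500 bp of their starts, with 3 members each at ZK816.1, irk-3 and rgs-7. These share a gene and are not independent sites. Repeated 31-base words occurred in 21 of the 319 regions, and 0 regions had more than 50% of such words.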

How the data were processed

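Whole first-stage larvae of 1 group with 2 biological replicates were profiled by ChIP-seq. Per the deposited README texts, the authors derived ce11 lists of 30000 regions from the alignments of each replicate and of both, plus 1 further file, to feed the irreproducible discovery rate procedure, and a thresholded consensus. The labels name a possible control experiment, whose strain is not described here. Aligner, peak caller and the scaling of the deposited signal were not stated in the labels or README texts. The signal (column 7) is the authors' own value for each region. The deposited score (column 9) was mostly below 0 in the pooled list and was used only in an alternative. Depth is unknown, so intervals cover counting of regions only.

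Annotation was Ensembl release 115 on WBcel235 (19973 protein-coding genes), and sequence and product names came from RefSeq on the same build. Coordinates are ce11, counted from 1. Ranks in replicate 1 leave out 23 mitochondrial regions. Base shares count every base within the same distance of a start. No test was run, since the rule used the signal and regions of 1 group are not replicates. The members, gene lists, words and comparisons were chosen with earlier results of these data known. Named genes were the 25 highest members, those at the limits, members among the 1000 highest of both replicates, and list genes with a member. The functions were checked on simulated positions (Python 3.11.15, numpy 2.4.6, pandas 2.3.3, scipy 1.17.1, matplotlib 3.10.9).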

Additional observations from a re-analysis of the deposited data

How the results depend on the processing

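The share of X summits at promoters lay below the autosomal share under every alternative run. The number of members was 164 for the 5000 highest regions, 622 for 20000, 944 for all 30000, 155 within 250 bp, 614 within 1000 bp, and 29 for the 1000 highest (an alternative added after the data were seen), which follows from the number of regions or the distance allowed. It was 0 in the authors' consensus, which holds 20 X peaks, and the cause was not tested. The X share was 9.13% within 250 bp, where 9.80% of X bases lie, 36.2% within 1000 bp (34.8% of bases), 14.6% with 1 start per gene (15.01% of bases) and 0% in the consensus. The autosomal base shares were higher, at 12.8% within 250 bp, 42.5% within 1000 bp and 19.6% with 1 start per gene. The sign of the difference alone thus does not show fewer regions per promoter base on X. The autosomal region shares were 16.24% within 250 bp, 46.3% within 1000 bp and 23.7% with 1 start per gene, each above its base share. The X share lay below its base share within 250 bp and with 1 start per gene, and above it within 1000 bp. Within 1000 bp X and the autosomes thus both exceeded their base shares, so X was not set apart in direction there. The X share minus the autosomal share, in percentage points, was -7.11 within 250 bp, -22.6 for the 1000 highest and -70.6 in the consensus. Without a replicate, the members numbered 297 to 352, the X share was 17.5% to 20.1% and the difference -9.30 to -9.15 points. Of 87 alternative values, 40 stayed within the interval of the reported value (or, for counts, within 1.5 times), 47 moved further and 0 changed direction. Only the X minus autosome differences have a sign, so the last count says nothing about the other values. Ranking by the deposited score gave 324 members and an X share of 18.6%. Matching in both replicates was 40.8% within 100 bp and 59.9% by overlap of 1 bp, against 56.1%. AAGTT was found in 22.6% of windows of 25 bp to either side and 61.1% of 100 bp. No paired analysis was possible because the samples form a single group without a test. Read depth limits could not be given.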
